A study of Mus musculus and Homo sapiens with 18 samples.

Results

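The mRNAs of 10 genes of selective autophagy were followed in 18 RNA-seq libraries of lens tissue and lens-related cells with and without the RNA-binding protein Quaking, encoded by *Qk* in mouse and *QKI* in human. They are 5 cargo receptors, *Sqstm1*, *Nbr1*, *Optn*, *Tax1bp1* and *Calcoco1*, and 5 genes whose proteins are conjugated to autophagosome membranes, *Map1lc3a*, *Map1lc3b*, *Gabarap*, *Gabarapl1* and *Gabarapl2*. The genes were taken by name from tables of 46882 (lens), 54838 (NLPC) and 60880 (HLE-B3) genes, and all 10 are present in each. *Sqstm1* was chosen by its measured values, since its counts moved differently between deletion and control among the systems, and the other 9 as its relatives by function. Its difference between deletion and control is therefore described without a test, and it enters no count of called genes. The other 9 had enough counts to be tested in both mouse systems, with at least 86 counts in every library. In HLE-B3 cells 8 of the 9 were tested, since *MAP1LC3A* had between 0 and 12 counts per library.

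Selective autophagy delivers ubiquitinated proteins, damaged organelles and aggregates to the lysosome. A cargo receptor binds the cargo with one part of the protein and, through a short motif, binds small ubiquitin-like proteins such as LC3B that are conjugated to lipid on the growing autophagosome membrane. Lens fibre cells lose their organelles as they mature and keep their crystallins for life, and autophagy is active in the lens. *Sqstm1* encodes p62, which is itself degraded with its cargo and also binds Keap1, the inhibitor of the transcription factor Nrf2.

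The lenses came from mice at P17-19 that had received tamoxifen at P7 and P8, 3 labelled Control (Ctrl; *Nestin-CreERT2; QkL/+*) and 3 *Qk*-iCKO (*Nestin-CreERT2; QkL/L*). As labelled, Ctrl mice carried the same Cre and 1 allele with *loxP* sites around exon 2. The study as a whole used control littermates of several genotypes, some without Cre. Cre was driven by the *Nestin* promoter, so cells of the lens without Nestin expression keep *Qk*. NLPCs are lens progenitor-like cells differentiated from neural stem cells of P1 mouse brains with 6 days of Noggin and then 12 days of bFGF, BMP4 and BMP7. The 3 libraries labelled wild type (WT) and 3 labelled *Qk*-/- trace to *Nestin-CreERT2; QkL/L* stem cells, in which deletion was induced with 100 nM 4-hydroxytamoxifen, and what the WT cultures received instead is not given in the sources used here. HLE-B3 is a human lens epithelial cell line, with 3 WT libraries and 3 *QKI* KO libraries from cells infected with a lentiviral CRISPR/Cas9 vector and enriched by puromycin, for which no clone is named. The study's methods do not say whether the WT cells received a control vector or puromycin. The part of infection and selection in the HLE-B3 differences was not tested. The study's reporting form speaks of biological replicates for its cell line work in general, while the labels tie no library to a culture of its own, so p-values in the cell systems measure the spread between these libraries.

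The lens libraries held 10319320 to 16425331 counts, those of NLPCs 28154202 to 68243360 and those of HLE-B3 cells 69190864 to 81384471. *Qk* itself was counted over all exons, in CPM (counts per 1000000 counts of the library after TMM scaling). It stood at 116 to 127 CPM in Ctrl and 86.7 to 106 in *Qk*-iCKO lenses, a difference that was not called (log2 fold change −0.31, edgeR adjusted p = 0.2). *QKI* stood at 257 to 263 in WT and 100 to 105 in *QKI* KO HLE-B3 cells (−1.34, edgeR adjusted p = 1.85e-11). In NLPCs *Qk* was higher in the libraries labelled *Qk*-/- (3080 to 3590 CPM) than in WT (2440 to 2670 CPM), and this difference was called (0.41, edgeR adjusted p = 0.027). These counts cover all exons and not exon 2 by itself, so they do not measure the deletion, and directions for NLPCs are given as labelled. The study reports, from staining and blots, that Quaking protein was lost from its stem cells and NLPCs after induced deletion. The library labelled *Qk*-/- 2 was the shallowest of the NLPCs, and its mean correlation with the other 5 was 0.892, against 0.948 to 0.957 for those. In the lens, *Qk*-iCKO 1 had a TMM factor of 1.47 (others 0.889 to 0.962), and only *Qk*-iCKO 2 and 3 had counts of Y-linked genes beyond 2 per gene. Of the lens markers, *Cryaa* reached 158000 CPM in Ctrl lenses. In NLPCs the 12 lens markers summed to 143 to 196 CPM, with *Birc7* at 0 in every library, and 12 neural and glial markers to 5040 to 7070 CPM. *CRYAA* was at 0 in all HLE-B3 libraries, in which *CRYAB* (533 CPM in WT) and *PAX6* (147 CPM in WT) were present and 8 fibroblast and connective tissue markers summed to 19100 to 24700 CPM.

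In control libraries *Sqstm1* had the highest level of the 5 receptors in each system, by CPM per kilobase of merged exons. In Ctrl lenses its level was 28.6 ± 1.19 CPM per kilobase (SD, n = 3), followed by *Nbr1*, a receptor that resembles p62 in its domains, at 16.2 ± 0.994 and *Optn* (optineurin) at 15.8 ± 3.1, whose ranges overlapped, then *Tax1bp1* at 7.23 ± 0.549 and *Calcoco1* at 2.66 ± 0.211. In WT NLPCs *Sqstm1* (68.4 ± 2.12 CPM per kilobase) stood above *Nbr1* (54.1 ± 0.63), with *Calcoco1* (24.9 ± 1.9) and *Tax1bp1* (22.1 ± 0.77) overlapping and *Optn* lowest (7.65 ± 0.745). In WT HLE-B3 cells *SQSTM1* (71.1 ± 3.58 CPM per kilobase) was followed by *TAX1BP1* (25.6 ± 1.95), *OPTN* (16.3 ± 0.625), *NBR1* (14.3 ± 0.589) and *CALCOCO1* (4.08 ± 0.0921), with no overlap between neighbours. The lead of *Sqstm1* in mouse depends on the division by exon length. In CPM alone *Nbr1* was above it in Ctrl lenses (111 and 96) and in WT NLPCs (372 and 230). *SQSTM1* led in WT HLE-B3 cells by CPM as well (536).

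Among the 5 conjugated proteins' genes, *Gabarapl1* led in Ctrl lenses at 141 ± 14 CPM per kilobase (SD, n = 3), ahead of *Gabarap* (35.9 ± 3.96), *Gabarapl2* (13.6 ± 0.301), *Map1lc3a* (5.89 ± 0.151) and *Map1lc3b* (4.67 ± 0.677). In WT NLPCs *Gabarap* (72.5 ± 7.9) and *Gabarapl1* (64.3 ± 3.51) overlapped at the top, above *Map1lc3b* (21.8 ± 1.33), *Map1lc3a* (12.9 ± 0.626) and *Gabarapl2* (7.82 ± 0.885). The place of mouse *Map1lc3b* depends on its merged-exon length of 7517 bases, against 1181 for *Map1lc3a*. In CPM alone *Map1lc3b* stood at 35.1 in Ctrl lenses, beside *Gabarapl2* at 31.6 and *Map1lc3a* at 6.95. In WT NLPCs it stood at 164 CPM and *Gabarap* at 134. In WT HLE-B3 cells *MAP1LC3B* led (41.4 ± 4.01), ahead of *GABARAPL1* (24.3 ± 0.781), *GABARAPL2* (6.64 ± 0.269) and *GABARAP* (1.52 ± 0.184), while *MAP1LC3A* was near 0 (0.0632 ± 0.0559). Of the exon bases of human *GABARAP*, 35.4% are shared on the same strand with another annotated gene that has 0 counts in all 6 HLE-B3 libraries, and how reads on both genes were assigned is not given in the sources used here, so its low level is uncertain. *MAP1LC3B2* and *GABARAPL3*, near-identical copies of *MAP1LC3B* and *GABARAPL1*, had at most 20 counts in any HLE-B3 library, and how reads that fit both copies were assigned is likewise not given.

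**Figure D1:**
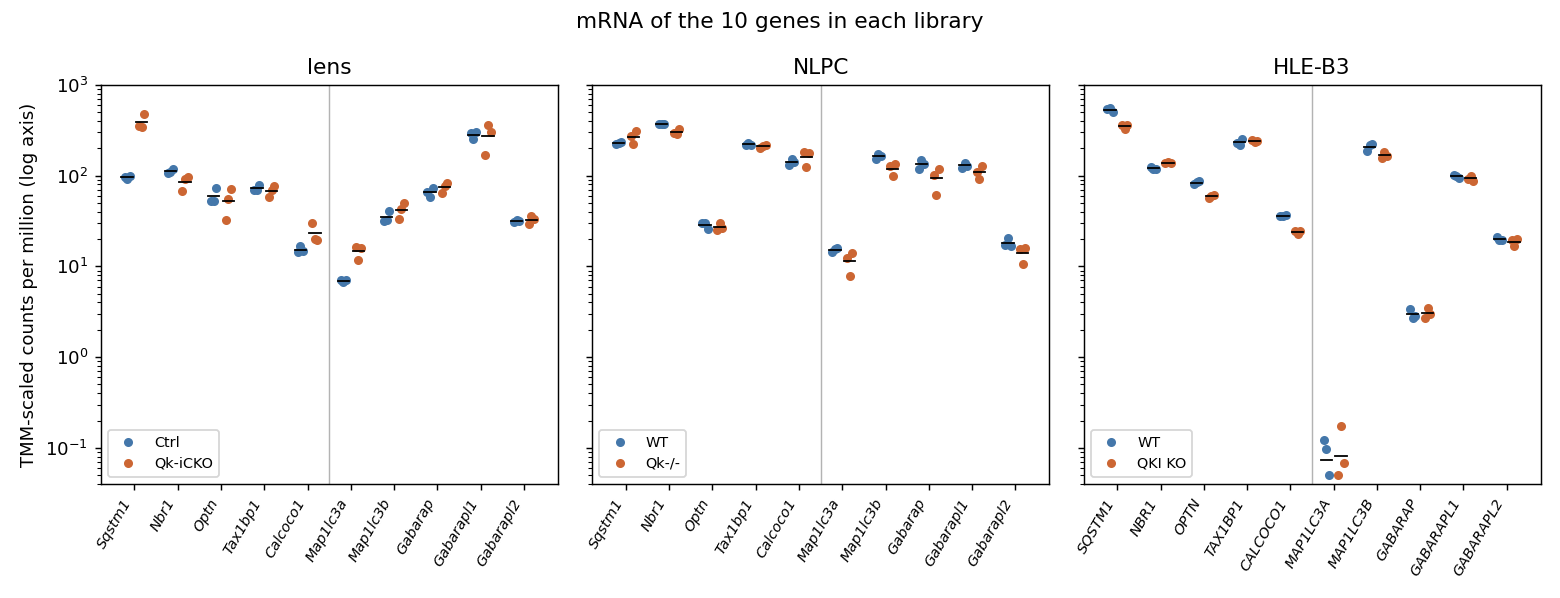
TMM-scaled CPM (log axis) of the 10 genes in each library of the lens, NLPCs and HLE-B3 cells, with control libraries in blue, deletion libraries in orange and the group mean as a bar. Values of 0 are drawn at 0.05. *Sqstm1* in *Qk*-iCKO lenses sits between 341 and 476, above all Ctrl lenses, whereas *SQSTM1* in *QKI* KO HLE-B3 cells sits between 330 and 362, below all WT libraries.

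*Sqstm1* mRNA was higher in *Qk*-iCKO lenses, close to the controls in NLPCs and lower in *QKI* KO HLE-B3 cells. The Ctrl lenses had 97.3, 91.6 and 99.3 CPM and the *Qk*-iCKO lenses 354, 341 and 476 CPM. Every *Qk*-iCKO lens lay far above every Ctrl lens, by 2.02 on the log2 scale (standard error 0.186) or 4.07-fold. Counts of Y-linked genes beyond 2 per gene were present in 0 of 3 Ctrl and 2 of 3 *Qk*-iCKO lenses, and the part of sex in the lens differences was not tested. Leaving out each lens in turn gave between 1.85 and 2.11, and total counts in place of TMM 2.29, a scaling under which the median of all genes tested was 0.29. In a bulk tissue, more cells of a type and more RNA per cell cannot be told apart.

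In NLPCs the WT libraries had 222, 231 and 236 CPM of *Sqstm1* and the libraries labelled *Qk*-/- 274, 221 and 308 CPM. The groups overlapped through *Qk*-/- 2, and the log2 fold change was 0.22 (standard error 0.122), or 0.35 without that library and 0.09 without *Qk*-/- 3. In HLE-B3 cells the order was the opposite of the lens, with 539, 561 and 508 CPM of *SQSTM1* in WT and 362, 330 and 359 CPM in *QKI* KO libraries. All 3 *QKI* KO libraries lay below all WT libraries, at a log2 fold change of −0.61 (standard error 0.0564). Less the median of the 50 tested genes nearest to it on chromosome 5 it was −0.64.

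The windows around the *Sqstm1* and *SQSTM1* start sites are shown because the gene was higher after deletion in the mouse lens and lower in the human line. They span 250 bases before to 50 after the start, printed 5′ to 3′ on the gene's strand, with every GGGCGG, the core of the GC box bound by Sp1, or its reverse complement, in capitals. The mouse window is from RefSeq on GRCm38.p6, chr11:50210771-50211070, minus strand, and the human window from GRCh37, chr5:179247655-179247954, plus strand.
Sqstm1: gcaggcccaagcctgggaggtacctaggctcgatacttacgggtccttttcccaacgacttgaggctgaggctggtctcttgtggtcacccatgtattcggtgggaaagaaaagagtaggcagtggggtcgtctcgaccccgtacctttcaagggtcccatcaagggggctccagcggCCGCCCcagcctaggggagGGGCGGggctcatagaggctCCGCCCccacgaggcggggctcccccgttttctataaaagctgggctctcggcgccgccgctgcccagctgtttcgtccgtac
SQSTM1: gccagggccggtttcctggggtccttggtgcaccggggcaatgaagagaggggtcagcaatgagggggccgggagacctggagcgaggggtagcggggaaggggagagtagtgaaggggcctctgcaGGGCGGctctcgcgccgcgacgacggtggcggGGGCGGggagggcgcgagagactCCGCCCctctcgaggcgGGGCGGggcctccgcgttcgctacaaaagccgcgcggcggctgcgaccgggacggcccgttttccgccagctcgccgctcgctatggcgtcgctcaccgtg
The mouse window held 3 GGGCGG matches and the human window 4. On both strands, 35.7% of 32851 mouse promoter windows of this length held GGGCGG. Neither window held CACGTG, the E-box core bound by TFEB and related factors (in 7.15% of mouse windows), or TGACNNNGC, the core of the antioxidant response element bound by Nrf2 (in 12.4%). These are descriptions of the letters in these windows only. *Sqstm1* and *Mrnip* overlap on opposite strands and share 17.3% of the exon bases of *Sqstm1* in mouse and 21% in human, and the strand setting of the counting is not given. *Mrnip* itself had 0.605 to 2.35 CPM in the lens, 3.14 to 12.4 in NLPCs and 13.2 to 19.8 in HLE-B3 cells.

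Among the other 9 genes, 1 was called at an adjusted p under 0.05 in the lens (12.3% of all genes tested were called), 0 in NLPCs (10.7%) and 4 of 8 in HLE-B3 cells (33.3%), by edgeR's quasi-likelihood test with Benjamini-Hochberg adjustment over all genes tested. These 3 contrasts are those from which *Sqstm1* was picked, so nothing is read from the counts against the shares of all genes. The median log2 fold change of the genes tested was 0.05 in the lens, −0.29 in NLPCs and −0.08 in HLE-B3 cells, beside 0.006, 0.04 and −0.02 over all genes tested. The *Qk*-iCKO and Ctrl lenses did not overlap for 3 of the 9 (35.3% of all genes), WT and *Qk*-/- NLPCs for 5 of the 9 (35.2%), all lower (19.3%), and the HLE-B3 groups for 4 of the 8 (44.6%). For the 0 of NLPCs, 3 genes had an unadjusted p under 0.05 (26.4% of all genes), and DESeq2 called 2, *Nbr1* and *Map1lc3b*. Without *Qk*-/- 2, edgeR called 3 in NLPCs, *Nbr1* and *Map1lc3b* as lower and *Calcoco1* as higher.

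**Figure D2:**
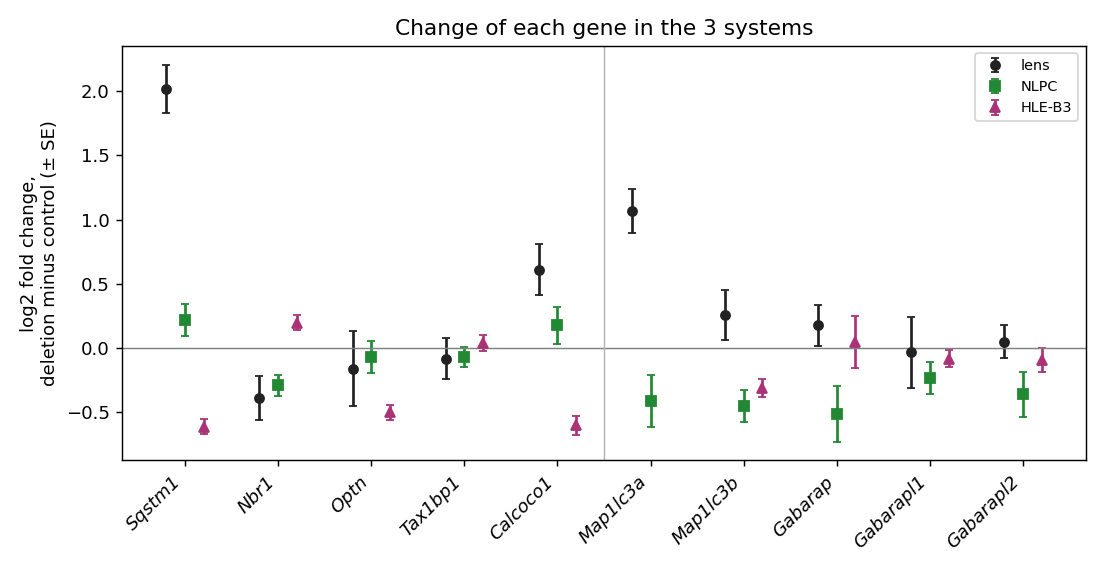
Log2 fold change, deletion minus control, of each gene in the lens, NLPCs and HLE-B3 cells, with bars of 1 standard error from the edgeR fit and a line between the receptors and the other 5 genes. *Sqstm1* spans 2.02 in the lens to −0.61 in HLE-B3 cells, while *Tax1bp1* stays between −0.08 and 0.04. *MAP1LC3A* was not tested in HLE-B3 cells.

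Of the fellow receptors, none followed *Sqstm1* at its size in the lens. *Nbr1* had 106, 109 and 119 CPM in Ctrl and 67.7, 92 and 95.8 CPM in *Qk*-iCKO lenses. Its groups did not overlap, in the direction opposite to *Sqstm1*, but its log2 fold change of −0.39 did not pass the test (standard error 0.172, adjusted p = 0.185). *Calcoco1*, whose protein serves as a receptor for the endoplasmic reticulum and the Golgi, had 14.5, 16.6 and 14.7 CPM in Ctrl and 29.9, 19.9 and 19.6 CPM in *Qk*-iCKO lenses. All 3 *Qk*-iCKO lenses were above the Ctrl lenses, *Qk*-iCKO 1 most, and the log2 fold change of 0.61 did not pass the test either (standard error 0.198, adjusted p = 0.0939), with 0.37 when *Qk*-iCKO 1 was left out. *Optn*, a receptor for damaged mitochondria and bacteria, ranged from 32.5 to 71.8 CPM among *Qk*-iCKO lenses and *Tax1bp1*, which recruits the autophagy machinery to ubiquitin condensates, from 57.9 to 77.4, both overlapping the Ctrl lenses at log2 fold changes of −0.16 and −0.08.

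In NLPCs *Nbr1* had 367, 375 and 373 CPM in WT and 297, 285 and 330 CPM in the libraries labelled *Qk*-/-. The groups did not overlap, and the log2 fold change was −0.29 ± 0.0837 (standard error; edgeR adjusted p = 0.0676), or −0.24 without *Qk*-/- 2 (adjusted p = 0.0488) and −0.28 in DESeq2 (adjusted p = 0.0142). *Calcoco1* had 131, 153 and 143 CPM in WT and 180, 126 and 178 CPM in *Qk*-/-. It overlapped through *Qk*-/- 2, at a log2 fold change of 0.18 (adjusted p = 0.466), and without that library it was 0.33 (adjusted p = 0.0152). *Optn* and *Tax1bp1* both stood at −0.07 with overlapping groups.

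In HLE-B3 cells *OPTN* and *CALCOCO1* fell and *NBR1* rose. *OPTN* had 80.3, 84.8 and 86.5 CPM in WT and 57.1, 60.4 and 60.7 CPM in *QKI* KO libraries (log2 fold change −0.50, standard error 0.0617, adjusted p = 9.16e-06). *CALCOCO1* had 36.2, 35.5 and 37.1 CPM in WT and 24.3, 22.9 and 24.4 CPM in *QKI* KO (−0.60, standard error 0.0728, adjusted p = 6.7e-06). In both genes the groups stood well apart, and less the median of their 50 nearest genes both were at −0.55. *NBR1* had 126, 117 and 118 CPM in WT and 137, 141 and 138 CPM in *QKI* KO (0.20, standard error 0.0566, adjusted p = 0.0101), a small rise that was −0.02 less the median of its nearest genes on chromosome 17 (0.23) and had an adjusted p of 0.0502 with total counts alone. *TAX1BP1* overlapped between the groups at 0.04 (adjusted p = 0.696).

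*Map1lc3a*, encoding LC3A, was the member other than *Sqstm1* that rose in the lens. It had 7.11, 6.76 and 6.99 CPM in Ctrl and 16.3, 11.7 and 15.8 CPM in *Qk*-iCKO lenses, on 86 to 266 counts per library. Each *Qk*-iCKO lens was above each Ctrl lens, and the log2 fold change was 1.07 ± 0.17 (standard error; edgeR adjusted p = 0.00825), or 2.1-fold. *Map1lc3b*, encoding LC3B, *Gabarap* and *Gabarapl2* had overlapping groups in the lens at log2 fold changes of 0.26, 0.18 and 0.05. *Gabarapl1* had 293, 251 and 305 CPM in Ctrl and 170, 361 and 300 CPM in *Qk*-iCKO lenses. The low library was *Qk*-iCKO 1, without which its log2 fold change of −0.03 (adjusted p = 0.954) was 0.22 (adjusted p = 0.343).

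In NLPCs *Map1lc3b* had 153, 173 and 166 CPM in WT and 127, 98.5 and 134 CPM in *Qk*-/-, a log2 change of −0.45 (standard error 0.125, adjusted p = 0.0585). *Gabarap* had 119, 148 and 135 CPM in WT and 102, 61.9 and 118 CPM in *Qk*-/- (−0.51, standard error 0.216, adjusted p = 0.18). For both the groups did not overlap, and *Qk*-/- 2 was the lowest library, as it was for *Map1lc3a* (7.91 CPM), *Gabarapl1* (92.4 CPM) and *Gabarapl2* (10.7 CPM). Without it *Map1lc3b* was at −0.32 (adjusted p = 0.0157) and *Gabarap* at −0.28, *Map1lc3a* at −0.20, *Gabarapl2* at −0.20 and *Gabarapl1* at −0.11, none of the latter 4 past the test. Keeping every gene with at least 1 count called *Map1lc3b* (adjusted p = 0.022) and *Gabarap* (adjusted p = 0.0202).

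In HLE-B3 cells *MAP1LC3B* fell, from 186, 218 and 223 CPM in WT to 158, 182 and 165 CPM in *QKI* KO (log2 fold change −0.31, standard error 0.0722, adjusted p = 0.00303). Every *QKI* KO library was below every WT library, but the 50 genes nearest to it on chromosome 16 had a median of −0.21, and less that median its change was −0.10. *GABARAPL1*, *GABARAPL2* and *GABARAP* overlapped between the groups at −0.08, −0.09 and 0.05.

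*Map1lc3b* is the gene of the 10 whose 3′ UTR, in the chosen transcript, held the core of the Quaking response element (ACTAAC or ACTAAT on the RNA's strand) in both species, with 1 match in mouse and 2 in human. The human sites, from GRCh37 chr16:87437010-87437039 and chr16:87437789-87437818, plus strand, are printed 5′ to 3′ with the core in capitals.
MAP1LC3B site 1: tgctcttttctcACTAATaggaacttgtaa
MAP1LC3B site 2: ctctttacagatACTAATgtcaagagttaa
Of the other genes only *TAX1BP1* in human held a match, at GRCh37 chr7:27869333-27869362, plus strand.
TAX1BP1: tatagaactgtcACTAACattaaagaaaga
Matches were found in the 3′ UTRs of 29.6% of 20655 mouse and 33.4% of 19274 human genes, at 0.362 and 0.352 sites per 1000 bases. These shares are not matched for length, and the *Map1lc3b* UTRs had 1990 bases in mouse and 1677 in human. The UTRs of mouse and human *Sqstm1* (638 and 1485 bases) held none. A match is a description of the letters and no evidence of binding.

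The difference between the 2 mouse systems was tested as an interaction in a joint edgeR fit of 16697 genes, of which 8.56% were called. *Map1lc3a* was the one of the 9 that was called, with a change lower in NLPCs than in the lens by 1.4 on the log2 scale (standard error 0.269, adjusted p = 0.00719). It was 1.07 in the lens and −0.41 in NLPCs, where it had 14.4, 15.6 and 15.8 CPM in WT and 12.3, 7.91 and 14.1 CPM in *Qk*-/-. *Map1lc3b* (adjusted p = 0.138) and *Gabarap* (adjusted p = 0.212) came next and were not called, and with total counts alone *Map1lc3b* was (adjusted p = 0.0355). The interaction of *Sqstm1* was not tested, because it was chosen for that difference, and HLE-B3 cells are set beside the mouse systems without a test.

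The share of *Sqstm1* among the receptor mRNAs differed most between groups in the lens. *Sqstm1* made up 42.8, 40.6 and 38.6% of the summed per-kilobase level of the 5 receptors in Ctrl and 78.2, 72.6 and 76.2% in *Qk*-iCKO lenses. In NLPCs its share was 38.6% ± 0.854 (SD, n = 3) in WT and 44% ± 2.32 in *Qk*-/-, without overlap, beside a *Nbr1* share of 30.5% ± 0.4 and 24.6% ± 1.37. In HLE-B3 cells the *SQSTM1* share was 54.1% ± 2.18 in WT and 44.9% ± 1.15 in *QKI* KO, and the *NBR1* and *TAX1BP1* shares differed the other way, from 10.9% ± 0.461 to 16% ± 0.659 and from 19.5% ± 1.69 to 25.4% ± 0.497. Since these shares contain *Sqstm1*, they are descriptions. The summed CPM of the receptors was 338 to 384 in Ctrl and 542 to 741 in *Qk*-iCKO lenses.

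**Figure D3:**
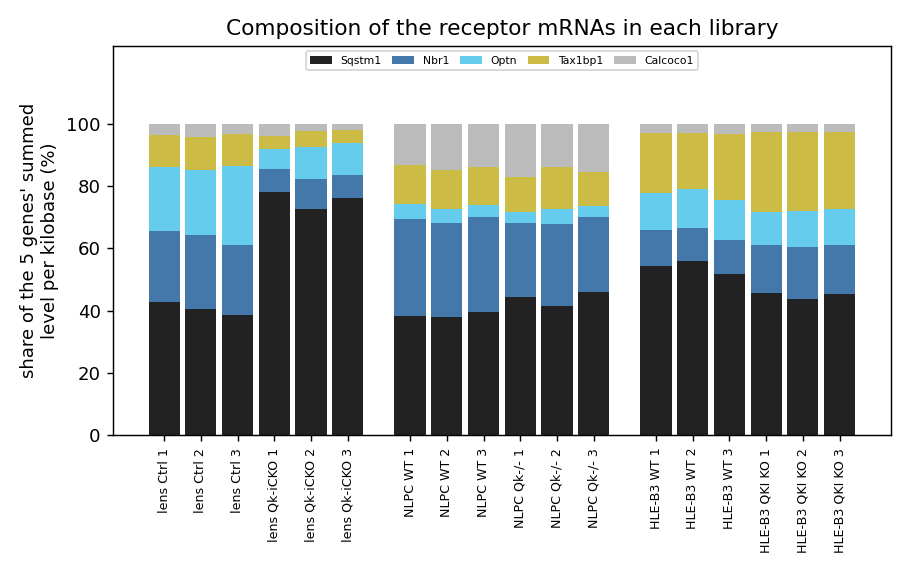
Share (%) of each receptor gene in the summed level per kilobase of the 5 receptors, 1 stacked bar per library. The black *Sqstm1* segment covers 38.6 to 42.8% in Ctrl lenses and 72.6 to 78.2% in *Qk*-iCKO lenses, and it is lower in each *QKI* KO than in each WT library of HLE-B3 cells.

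Markers of other cell types moved with *Sqstm1* in the lens. Of all genes tested there, 8.38% were called higher and 3.88% lower. The 12 macrophage and leukocyte markers summed to 2.73, 2.63 and 5.62 CPM in Ctrl and 136, 149 and 170 CPM in *Qk*-iCKO lenses. By edgeR 11 of the 11 tested rose, with a median log2 fold change of 5.56. Most were near 0 in Ctrl lenses, such as *Ptprc* (0.0504 CPM) and *Tyrobp* (0.0913 CPM). They passed the low-count filter through the *Qk*-iCKO lenses, so this count was largely set by the filter. *Aif1* was at 0 in the Ctrl lenses, and the complement genes *C1qa* (36 ± 11 CPM) and *C1qb* (23.5 ± 3.63 CPM; SD, n = 3) were among the highest in *Qk*-iCKO lenses. The 8 fibroblast and connective tissue markers summed to 64.7 to 81.5 and 228 to 290 CPM, with 3 of 6 tested called higher, and the 12 lens markers to 203000 to 224000 and 113000 to 184000 CPM. Of the lens markers 1 of 11 tested was called, *Mip* (0.309-fold, edgeR adjusted p = 0.0259), and their median log2 fold change was −0.37. *Cryaa*, the largest part of the sum (158000 CPM in Ctrl), was not called (edgeR adjusted p = 0.573), and *Prox1* and *Birc7* were at 0.19 and 0.18. The 6 blood and endothelial markers summed to 2.99 to 4.86 CPM in Ctrl and 9.08 to 12.9 CPM in *Qk*-iCKO lenses, and 1 of 4 tested rose, the endothelial *Pecam1* (4.62-fold, adjusted p = 0.028). Of the neural and glial markers 1 of 8 tested rose, *Nes*, whose promoter drives the Cre (4.55-fold, adjusted p = 0.00871), and the sums were 59.3 to 84.2 and 77.1 to 106 CPM. The study reports staining of Nestin and GFAP in lens epithelial cells, so *Nes* does not tell neural cells from lens cells here. The 6 retina and pigment cell markers summed to 1.99 to 292 CPM in Ctrl, highest in Ctrl 2, and 11.4 to 91.1 CPM in *Qk*-iCKO lenses, with 0 of 5 tested called. The part of these cell types in the higher *Sqstm1* and *Map1lc3a* was not tested.

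Markers also moved in the cell systems. In NLPCs the leukocyte sum was 8.8 to 11 CPM in WT and 12 to 18.2 CPM in *Qk*-/-, with *C1qa* at 0 throughout, and in HLE-B3 cells it was 2.05 to 3.89 CPM. The 12 neural and glial markers summed to 6590 to 7070 CPM in WT and 5040 to 5700 CPM in *Qk*-/- NLPCs. Of these, 4 of 12 rose and 3 fell, beside 4.74% and 5.96% of all genes tested. The neuronal *Snap25* was at 58.5-fold of WT, from only 0.272 CPM, while the neuronal *Tubb3* was at 0.542-fold and not called (edgeR adjusted p = 0.0806). Glial markers split too, with *Slc1a3* and *Gfap* at 0.316-fold and 0.385-fold and *Aqp4* at 1.67-fold (edgeR adjusted p = 0.0012). In HLE-B3 cells, where 17% of all genes tested rose and 16.3% fell, 5 of 7 neural and glial markers tested fell, among them *NES* (0.42-fold). The sums were 152 to 159 CPM in WT and 74.8 to 81.1 CPM in *QKI* KO. Of the fibroblast and connective tissue markers 4 of 7 tested fell there, among them *COL3A1* (0.451-fold), and 1 rose, with sums of 24400 to 24700 and 19100 to 19400 CPM. Their part in the members' differences was not tested.

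**Figure D4:**
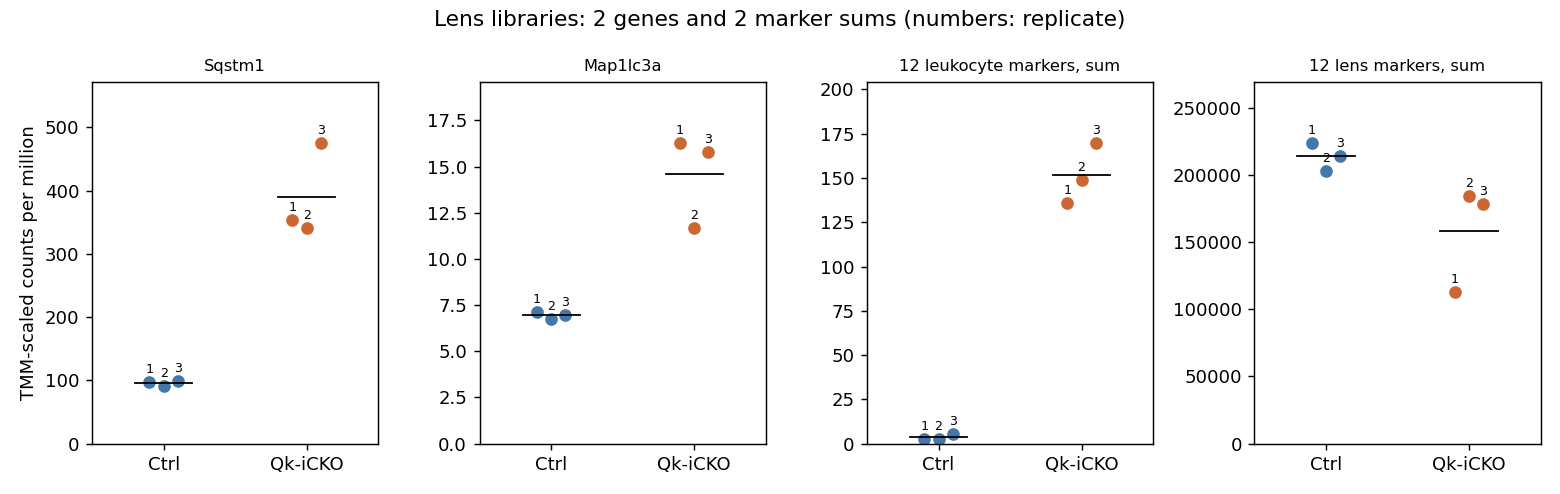
TMM-scaled CPM of *Sqstm1*, *Map1lc3a*, the 12 leukocyte markers (summed) and the 12 lens markers (summed) in each lens, with the replicate number at each point and the group mean as a bar; each panel has its own linear axis from 0. The first 3 measures are higher in every *Qk*-iCKO lens. The lens marker sum, of which *Cryaa* is the largest part, is lower in each, *Qk*-iCKO 1 (113000) most.

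Other genes of the pathway showed few calls in the lens, where 8.38% of all genes tested rose and 3.88% fell. Of 21 genes of autophagosome initiation and membrane supply, 0 rose and 1 fell, *Wipi2*, which links the membrane lipid PI3P to LC3 conjugation (57.6 ± 1.22 CPM in Ctrl and 36 ± 1.44 in *Qk*-iCKO; SD, n = 3; log2 fold change −0.68, adjusted p = 0.0125). By edgeR, 0 of 10 LC3 conjugation and processing genes and 0 of 15 other cargo receptors were called, 0 and 2 had an unadjusted p under 0.05, and DESeq2 called 0 of each. Of 16 maturation and control genes 1 fell, *Mitf*, a relative of the lysosomal regulator TFEB (−0.93, adjusted p = 0.0487). Of 9 Keap1 and Nrf2 genes, *Srxn1*, encoding sulfiredoxin, rose (1.25, adjusted p = 0.00451), as did *Txnrd1*, encoding thioredoxin reductase (0.65, adjusted p = 0.0412), while *Gclc*, encoding a subunit of the enzyme that starts glutathione synthesis, fell (−0.98, adjusted p = 0.0112). Without *Qk*-iCKO 1, an alternative added after seeing the data, the calls were 2 lower in initiation, 0 in maturation, and 1 higher and 1 lower among Keap1 and Nrf2 genes.

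In NLPCs, where 4.74% of all genes tested rose and 5.96% fell, 1 of the 21 initiation genes rose and 3 fell: *Vmp1* (0.35, adjusted p = 0.0287) against *Ulk2*, a kinase that starts autophagosome formation (−0.70, adjusted p = 0.00563), *Wipi1* (−0.67, adjusted p = 0.00726) and *Wdr45b* (−0.58, adjusted p = 0.0134). Of the 15 other cargo receptors 4 fell, *Ncoa4*, the receptor for ferritin (−0.76, adjusted p = 0.00583), the mitophagy receptors *Bcl2l13* (−0.71, adjusted p = 0.0134) and *Bnip3l* (−0.38, adjusted p = 0.0165), and *Rtn3*, a receptor for the endoplasmic reticulum (−0.34, adjusted p = 0.0383). Of the 10 conjugation genes edgeR called 0, 3 had an unadjusted p under 0.05 and DESeq2 called 1. Maturation genes split, with *Foxo1* (0.62) and *Foxo3* (0.50) higher and *Mitf* (−0.65) and *Ykt6* (−0.77) lower. Of 10 Keap1 and Nrf2 genes 3 fell, *Hmox1* (−0.83), *Slc7a11* (−0.46) and *Txnrd1* (−0.32), the last of which rose in the lens. Without *Qk*-/- 2 the calls were 1 higher and 4 lower in initiation, 1 lower in conjugation, and 1 higher and 5 lower among the other receptors.

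In HLE-B3 cells, where 17% of all genes tested rose and 16.3% fell, 2 of the 21 initiation genes rose and 6 fell, among them *PIK3C3*, the class III PI3-kinase that makes PI3P (−0.69, adjusted p = 8.41e-07), *VMP1* (−0.38, adjusted p = 9.39e-05) and *ULK1* (−0.49, adjusted p = 0.000256). Of the conjugation genes *ATG3* rose (0.26, adjusted p = 0.00984) and 3 fell, *ATG10* most (−1.19, adjusted p = 0.000281). Of 16 other receptors *BNIP3*, a mitophagy receptor, rose (0.59, adjusted p = 3.23e-06). Maturation genes held 1 that rose, *TBK1*, the kinase that phosphorylates optineurin and p62 (0.30, adjusted p = 0.00278), and 3 that fell, with *MTOR* at −0.28 (adjusted p = 0.000906). Of the Keap1 and Nrf2 genes 4 of 10 rose, among them *TXNRD1* (0.69), *GCLC* (0.72) and *SLC7A11* (0.42), and 2 fell, among them *NFE2L2* itself (−0.26, adjusted p = 0.00225). *GCLC* was thus higher after deletion in HLE-B3 cells and lower in the lens, a difference that was not tested.

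**Figure D5:**
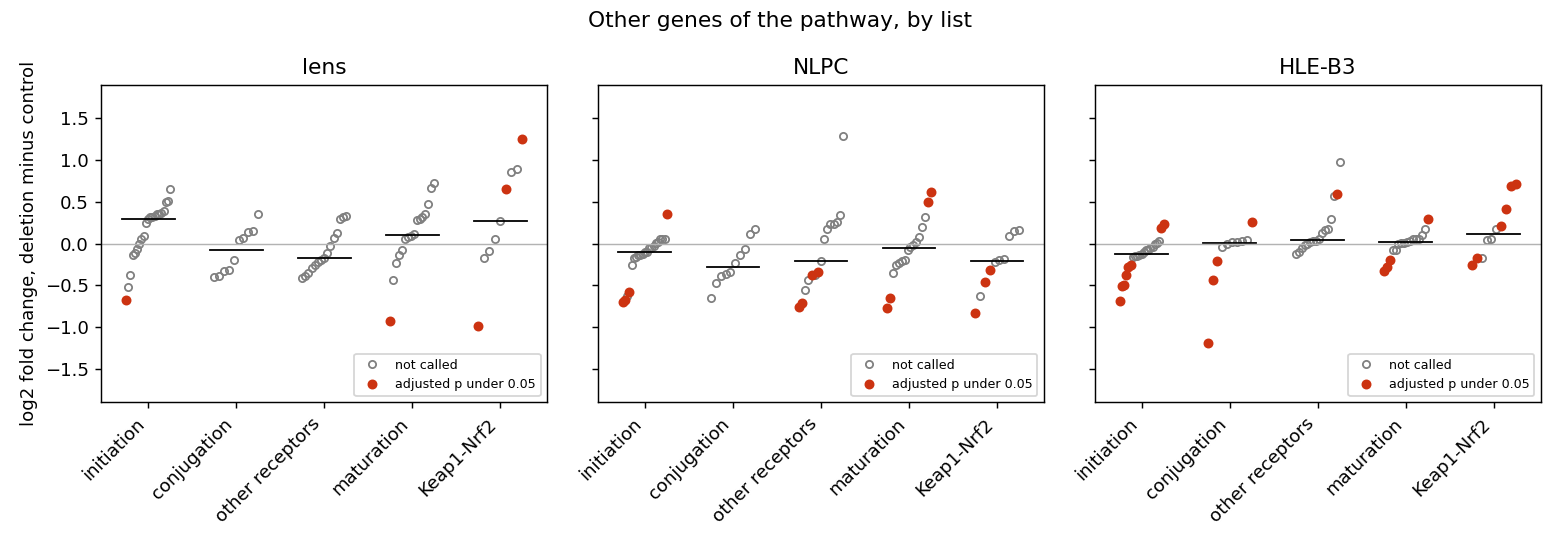
Log2 fold change, deletion minus control, of every tested gene of 5 lists in the 3 systems, red where the adjusted p from edgeR was under 0.05, with the list's median as a bar. In the lens 2 genes of the first 4 lists are red, *Wipi2* and *Mitf*, both below 0, and in HLE-B3 cells red points lie on both sides of 0.

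The 5 genes whose pattern was most like that of *Sqstm1* over the 18 libraries, by Pearson's r of log2 CPM with the mean of each system subtracted, among 9406 genes tested in all 3 systems, were *Uap1l1* (0.976), *Aldh3b1* (0.962), *Cdkn1a* (0.96), *B2m* (0.96) and *Socs3* (0.957). *B2m*, the light chain of MHC class I, had log2 fold changes of 3.21 in the lens, −0.25 in NLPCs and −0.94 in HLE-B3 cells, and *Cdkn1a*, encoding the cell cycle inhibitor p21, 4.59, 0.47 and −0.81. The libraries share their group means in this measure, so r mostly reflects the differences between groups. Among the fellow members compared *Calcoco1* was nearest, at an r of 0.726 and rank 577, and *Nbr1* was at −0.653. *Map1lc3a* was not compared, since it was not tested in HLE-B3 cells.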

How the data were processed

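RNA-seq was done on 3 control and 3 deletion libraries of lens tissue, NLPCs and HLE-B3 cells. The deposited tables hold raw counts, 1 row per gene. The authors aligned stranded paired-end reads (TruSeq stranded libraries) to mm10 or hg19 with STAR 2.6.1b in 2-pass mode and counted them with HTSeq 0.11.0. The submitters' processing notes also list HISAT2 2.0.4 and featureCounts without a role, and the lens table's header has the form featureCounts writes, so the lens and cell tables may have been counted differently, whose effect on lens against NLPCs was not tested. The strand setting of the counting is not given in the sources used here. Groups are those of the labels.

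Each system was fitted on its own with edgeR 4.0.16 in R 4.3.3 (filterByExpr at minimums of 10 and, in all, 15 counts, TMM factors, glmQLFit and glmQLFTest without covariates), with Benjamini-Hochberg adjustment over all genes tested and a threshold of 0.05. CPM are TMM-scaled, and standard errors follow from the F statistic. Exon lengths and coordinates are from GENCODE on GRCm38 and GRCh37, promoter windows from RefSeq on GRCm38.p6 and, for human *SQSTM1*, from GRCh37. For the 3′ UTR search the MANE Select, then principal, then longest coding transcript was used. Alternatives were RLE factors, total counts, factors without crystallins (lens), other low-count filters, DESeq2 1.42.0, a replicate block, each library left out and, in HLE-B3 cells, subtraction of the 50 nearest genes. The steps were tested on simulated data. Replicate libraries differed by 10.2 to 428 times sampling noise (chi-square per gene), so each was counted once. The highest values were those of NLPC WT 2, at 428 and 385 against WT 1 and WT 3, which differed from each other by 24.1. *Qk*-/- 2 was at 90.3 and 145 against the other *Qk*-/- libraries.

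Same-numbered lens libraries correlated in their deviations from the group means at 0.233, 0.133 and 0.523, and those of NLPCs at 0.123, 0.32 and 0.145. Ctrl 2 lenses matched *Qk*-iCKO 1 best and NLPC WT 1 matched *Qk*-/- 3 best, so pairing by number is uncertain. The main fits did not pair libraries, and the replicate block is the alternative that did. The genes and lists were chosen with earlier results of these data known. Named are all members, at most the 4 genes of each other list with the smallest adjusted p per system, cell type markers, and the 5 genes most like *Sqstm1* (prior count 2). Some list genes were matched by another symbol (*Retreg1* as *Fam134b* in the lens). Some results that were computed are not reported here.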

Additional observations from a re-analysis of the deposited data

Results flagged for a closer look

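The change of *Map1lc3a* differed between the mouse systems by the interaction test: it was lower in NLPCs than in the lens by a log2 difference of −1.4 (standard error 0.269, adjusted p = 0.00719 from edgeR), with an adjusted p between 0.000131 and 0.0308 over the alternatives. Its own log2 fold changes were 1.07 and −0.41, with each deletion library above each control in the lens and below each control in NLPCs.

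In 3 further genes every deletion library lay above every control library in one system and below in another, and these differences were not tested. *Sqstm1* was higher in the lens (2.02) and lower in HLE-B3 cells (−0.61), which is the difference it was chosen for. *Calcoco1* was higher in the lens (0.61) and lower in HLE-B3 cells (−0.60). *Nbr1* was lower in the lens (−0.39) and in NLPCs (−0.29) and higher in HLE-B3 cells (0.20). Groups of 3 libraries are too small for a search for single outlying libraries.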

How the results depend on the processing

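The lens count of 1 called gene (*Map1lc3a*) held in all 13 alternatives. In NLPCs the count of 0 was 2 with every gene with at least 1 count, 1 with genes of at least 10 counts in every sample, 2 in DESeq2, and 0 to 3 with each library left out. The HLE-B3 count of 4 was 3 to 4, and the lens and NLPC interaction count of 1 was 2 with total counts alone. The replicate block left these counts at 1 (lens), 0 (NLPC), 4 (HLE-B3) and 1 (interaction) and changed no call. In HLE-B3 cells same-numbered libraries correlated at only 0.0613, 0.0566 and −0.0495, so the numbers do not pair them. The log2 fold change of *Sqstm1* in the lens was 2.29 with total counts alone; each library left out gave 1.85 to 2.11 in the lens, 0.09 to 0.35 in NLPCs and −0.65 to −0.57 in HLE-B3 cells. Signs turned only in changes that were not called, apart from *NBR1* less its nearest genes (−0.02); less theirs, *TAX1BP1*, *GABARAPL1* and *GABARAPL2*, which were not called, were −0.03, 0.13 and 0.16. In the lens total counts gave *Optn* 0.04, *Tax1bp1* 0.17 and *Gabarapl1* 0.17; without Ctrl 3 *Optn* was 0.01 and *Gabarapl1* 0.02; without *Qk*-iCKO 1 they were 0.10 and 0.22, with *Tax1bp1* 0.02; without *Qk*-iCKO 2 *Gabarapl2* was −0.02. Over all left-out libraries *Optn* spanned −0.45 to 0.10, *Gabarapl1* −0.27 to 0.22 and *Gabarapl2* −0.02 to 0.12. In HLE-B3 cells total counts gave *TAX1BP1* −0.02 and *GABARAP* 0; without WT 2 they were 0 and −0.01, and without *QKI* KO 2 *GABARAP* was −0.05. In the interaction total counts gave *Nbr1* −0.09, *Optn* −0.06 and *Tax1bp1* −0.19; *Optn* was −0.03 without Ctrl 3 and −0.07 without *Qk*-iCKO 1, and *Gabarapl1* 0.11 without *Qk*-iCKO 2 (ranges −0.07 to 0.45 and −0.35 to 0.11). The cause was not tested. At 0 to 12 counts *MAP1LC3A* in HLE-B3 cells fell below the low-count filter.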
